A study of Mus musculus with 6 samples.

Results

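DNase-seq maps accessible chromatin: a light DNase I digestion cuts DNA where it is not wrapped tightly in nucleosomes, and the ends of the freed fragments are sequenced. Accessible stretches called from such tags are hotspots, and most lie at promoters and enhancers. Lipopolysaccharide (LPS), a component of the bacterial outer membrane, activates macrophages through Toll-like receptor 4 and brings NF-κB and AP-1 to enhancers of inflammatory genes. Glucocorticoids act through the glucocorticoid receptor, which binds DNA itself, is known to act at accessible enhancers in macrophages, and both raises the expression of anti-inflammatory genes and represses inflammatory ones.

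The comparison was between macrophages given Dex, the glucocorticoid of the study, ahead of LPS and macrophages given LPS alone. All cells were grown from bone marrow of C57BL/6J mice and all received LPS for 8 h. The comparison holds 4 of the 6 libraries of the series, 2 for each treatment, chosen by their titles. The other 2 libraries, with Dex given late during the LPS treatment, are used only for values set side by side near the end. No allele or transgene is named for any group, and neither the dose of Dex nor how long it preceded LPS is stated in the labels. Cells without LPS were not analysed here, so the libraries compare 2 treated states. Nothing says that replicates came from separate mice or cultures, so a p-value here covers library-to-library spread alone, and that spread may be technical.

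Each library came with its own list of hotspots, 48084 and 51834 for LPS alone (replicates 1 and 2) and 34646 and 44686 for Dex before LPS. Hotspots of the 4 lists that overlapped by at least 1 bp were merged into 57907 regions covering 51.1 Mb. Of these, 29897 (51.6%) were listed by all 4 libraries, with a median width of 1026 bp. These shared regions made up 64.2% and 59.0% of the regions of the LPS libraries, and 91.6% and 69.6% of those with Dex before LPS. The short list of replicate 1 with Dex before LPS therefore decides much of which regions are shared. A further 6704 regions were listed by every library except that one. Total tag numbers are unknown, so no counting interval was computed. The maximum tag densities fell on steps of 0.334 and 0.347 in the LPS libraries and of 0.412 and 0.380 in those with Dex before LPS. The steps thus did not overlap between treatments, and whether they follow depth was not tested. The largest set of tied regions held 1.84% to 2.67% of the shared regions, so a single step in a weak region can move its rank by that much. Regions are given by mm9 position as deposited. Genes and cell type markers were not assigned to them, because no mm9 annotation was used here.

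Strength was compared as a percentile. In each library a region took the highest maximum tag density of its hotspots, and the 29897 shared regions were then ranked within that library from 0 (weakest) to 100 (strongest), so every library ranks the same regions. A difference of 20 points means that a region overtook or fell behind 20% of the shared regions.

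The ranks of accessible regions were similar in all 4 libraries. Across regions, the Spearman correlation was 0.927 between the LPS replicates and 0.919 between the replicates with Dex before LPS. Between treatments it lay from 0.858 to 0.907. These correlations describe regions of the same genome and are not tests. Taking single libraries against each other, the difference in percentile had an SD over regions of 11.0 points between the LPS replicates and 11.6 points between the replicates with Dex before LPS. The 4 pairs of libraries from different treatments had SDs from 12.4 to 15.4 points, each above both replicate pairs. The widest was LPS replicate 2 against replicate 1 with Dex before LPS, the longest list against the shortest.

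**Figure D1:**
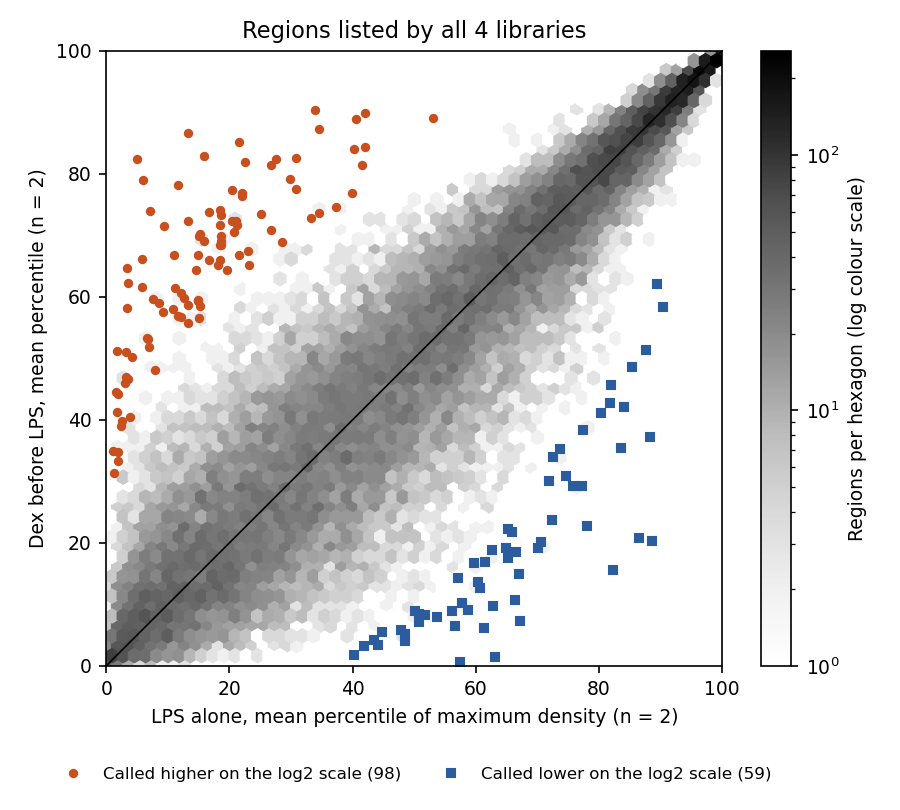
Mean percentile of maximum tag density with LPS alone (x axis, n = 2) and with Dex before LPS (y axis, n = 2) for the 29897 shared regions, shaded by the number of regions per hexagon on a log colour scale. Most regions lie near the diagonal; the 98 regions called higher (circles) and the 59 called lower (squares) with Dex on the log2 scale lie away from it, mostly where the mean of the 2 group values is intermediate.

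No region passed the test on percentiles. With limma and Benjamini-Hochberg adjustment over all 29897 regions, 0 (0%) were called higher and 0 (0%) lower with Dex before LPS, and the smallest adjusted p was 0.235. At an unadjusted p under 0.05 there were 2797 regions (9.36%), 1283 higher and 1514 lower. In simulated data with 2 libraries against 2, this test called few of the rank shifts planted in regions of middle rank. The simulated noise was independent between libraries, and power in the real data was not measured. The absence of calls thus does not show that ranks were equal. The call depended on the scale and on the design. With the replicate number as a block, limma on the same percentiles called 384 regions higher and 505 lower, but no label says that the numbers pair the libraries. With limma on log2 maximum density, quantile-normalized over the 4 libraries, 98 regions (0.328%) were called higher and 59 (0.197%) lower at an adjusted p under 0.05. Quantile normalization gives the 4 libraries the same set of values, so that scale holds only each region's rank within its library. The median difference over all regions there was 0.01, but an overall shift cannot show on such a scale.

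Large rank differences were more frequent between libraries of different treatments than between replicates. Single libraries were at least 20 points apart in 3319 to 5389 regions (11.1% to 18.0%) for the 4 pairs from different treatments, against 2352 regions (7.87%) for the LPS replicates and 2780 (9.30%) for the replicates with Dex before LPS. Both libraries with Dex before LPS ranked above both LPS libraries in 5480 regions (18.3%) and below both in 5635 (18.8%). If the 4 libraries were exchangeable, a share of 0.333 of regions would separate in one direction or the other. These 2 counts are therefore little above that share and are not counts of treatment differences. Requiring also at least 20 points between the group means left 1001 regions higher (3.35%) and 1148 lower (3.84%). At 40 points, 97 regions were higher and 59 lower, and at 50 points 40 were higher and 15 lower. These counts hold shared regions only. They leave out 5021 regions listed by both LPS libraries and neither with Dex before LPS, and 572 of the reverse kind. The balance of gains and losses over all regions therefore cannot be read from them. The LPS replicates were at least 40 points apart in 42 regions and at least 50 apart in 2, and the replicates with Dex before LPS in 68 and 4. Counts for group means are stricter than those for single libraries, because a mean of 2 varies less and the libraries may not overlap. The 20-point threshold was chosen after values were seen, and the split depends on how ranks are taken. Ranking within each whole list, as the lists were deposited, gave 273 higher and 3673 lower, on lists of different length.

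**Figure D2:**
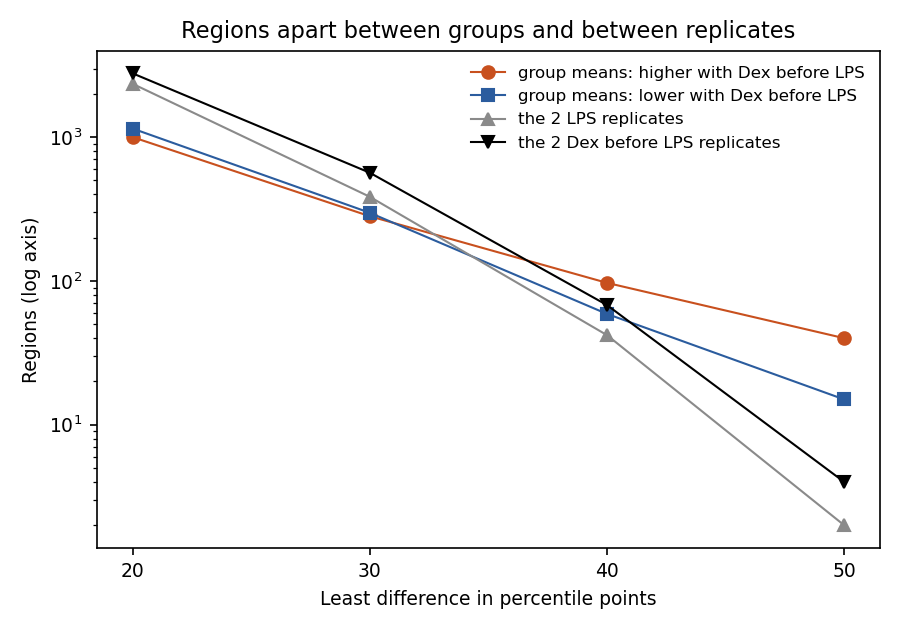
Number of shared regions (y axis, log scale) at least 20, 30, 40 or 50 percentile points apart (x axis), for group means without overlap of libraries (circles higher, squares lower with Dex before LPS) and for the 2 replicates of each treatment (triangles). The lines for group means and for replicates count by different rules and are not like for like; at 50 points 40 regions were higher and 15 lower, and replicates differed in 2 and 4.

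The regions that gained most rank with Dex before LPS were weak with LPS alone. Percentiles are bounded, so gains of this size need a low start, and that position largely follows from the choice of regions. The 10 with the largest gain without overlap, picked after values were seen, lay between the 1.71st and 29.8th percentile in the LPS libraries and between the 63.3rd and 91.6th with Dex before LPS. They lay on 7 chromosomes. Their gains ran from 60.3 to 77.3 points, with limma SEs of 8.44 to 9.38 and adjusted p of 0.235 to 0.242 on percentiles. On the log2 scale they gained 1.79 to 2.49, and all 10 were called there (limma adjusted p 0.000694 to 0.00346). That scale rests on the same ranks by which the 10 were picked, so these calls largely follow from the choice.

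The largest gain was at chr9:48552749-48553897. Its percentiles were 4.27 and 5.75 with LPS alone and 85.9 and 78.8 with Dex before LPS. The deposited maximum densities there were 6.02 and 6.94 against 45.3 and 31.5. A weak region of the LPS libraries thus stood among the stronger ones in both libraries with Dex, 77.3 ± 9.07 points higher (limma SE, n = 2 against 2) and 2.49 ± 0.24 higher on the log2 scale. A second region of the 10 lay less than 5 kb away, at chr9:48547860-48548927, with percentiles of 4.27 and 9.87 against 76.3 and 71.6. Both regions of this stretch were near the bottom of the LPS libraries and in the upper part with Dex.

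At chr4:140827205-140828443 the percentiles were 16.7 and 9.87 with LPS alone and 81.5 and 91.6 with Dex before LPS, a gain of 73.3 ± 9.11 points. At chr1:161818529-161820327 they were 8.29 and 3.57 against 74.6 and 83.3, a gain of 73.1 ± 9.23 points. In both regions the replicates of a treatment lay much closer to each other than to the other treatment. That largely follows from choosing the largest gains without overlap. Replicates were also close at chr5:32387677-32388828, with 14.9 and 16.8 against 83.4 and 82.3, a gain of 67.0 ± 8.64 points. Chromosome 3 held a pair of the 10, at chr3:50124458-50125658 (13.3 and 29.8 against 81.8 and 88.7) and chr3:50540501-50541900 (11.7 and 7.01 against 69.1 and 73.9). The first of the pair had the widest spread between LPS replicates among the 10. Its groups did not overlap, as the choice of regions required. The remaining regions were chr1:80491705-80494011, chr13:102566599-102567592 and chr15:66573801-66574806, with gains of 66.6, 61.3 and 60.3 points.

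The regions that lost most rank came from higher positions with LPS alone, which losses of this size require on a bounded scale. The 10 with the largest loss lay between the 49.7th and 89.6th percentile in the LPS libraries and between the 0.508th and 31.4th with Dex before LPS, on 9 chromosomes. Their differences ran from -68.2 to -53.1 points (SE 7.73 to 10.5, limma adjusted p 0.235 to 0.252). On the log2 scale the differences were -2.26 to -1.51, and all 10 were called (limma adjusted p 0.000981 to 0.0155). Like those of the gains, these calls largely follow from the choice of regions by rank.

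The largest loss was at chr2:122490910-122492812, with percentiles of 89.6 and 87.5 with LPS alone and 24.5 and 16.1 with Dex before LPS. Its deposited maximum densities were 52.2 and 38.5 against 9.47 and 9.49. This was one of the strongest regions to lose rank, with a difference of -68.2 ± 8.38 points and -2.26 ± 0.24 on the log2 scale. At chr10:57538454-57539638 the percentiles were 81.0 and 83.6 against 16.9 and 14.2, a difference of -66.7 ± 8.70 points. At chr3:138183704-138185187 they were 84.0 and 89.1 against 29.1 and 12.4, a difference of -65.8 ± 9.31 points. In these 3 regions both LPS libraries were above the 80th percentile and neither library with Dex was above the 30th.

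Other regions fell from intermediate positions to the bottom of the shared set. At chr1:151862016-151863235 the percentiles were 66.4 and 59.6 with LPS alone and 1.49 and 1.47 with Dex before LPS. At chr13:102339071-102339785 they were 57.0 and 57.7 against 0.508 and 0.612. These regions were barely listed with Dex, with deposited maximum densities of 4.12 and 4.56 at the second. Less even was chr19:33234242-33235080, where LPS replicate 1 stood at 49.7 and replicate 2 at 73.1, against 9.26 and 2.88 with Dex before LPS. The remaining regions of the 10 were chr14:106150931-106151743, chr17:81979005-81981072, chr2:116767727-116768774 and chr4:34335683-34337144, with differences of -59.8, -55.7, -55.3 and -53.1 points.

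**Figure D3:**
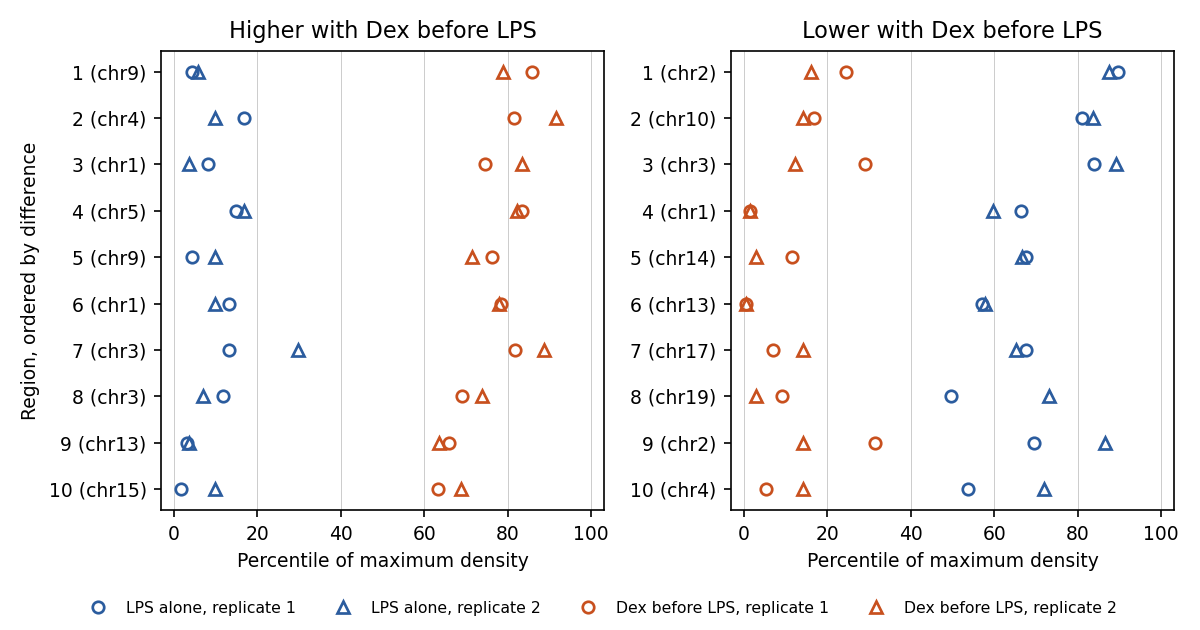
Percentile of maximum tag density (x axis) of the 10 regions with the largest gain (left) and the 10 with the largest loss (right) with Dex before LPS, ordered by difference and labelled by chromosome (y axis). Each symbol is a library (blue LPS alone, orange Dex before LPS; circle replicate 1, triangle replicate 2); in all 20 regions the blue and orange symbols do not overlap, as the choice of regions requires.

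Few of the strongest regions differed by 20 points in rank. Percentiles are bounded, so a region with a mean above the 80th percentile or below the 20th cannot differ by more than 40 points, and counts by strength partly follow from the scale. Of the 5772 shared regions with a mean above the 80th percentile, 1 was at least 20 points higher and 2 were lower without overlap, and 0 were called in either direction on the log2 scale with limma. Differences of that size were most frequent between the 20th and 40th percentile, with 495 higher and 524 lower of 6676 regions, and between the 40th and 60th, with 358 higher and 414 lower of 6186. Spread between replicates followed the same course. The SD of the difference between LPS replicates was 13.8 points between the 20th and 40th percentile and 5.66 points above the 80th. The strong region with the largest gain, chr7:71055458-71057706, had percentiles of 61.6 and 85.0 with LPS alone and 91.8 and 96.7 with Dex before LPS (limma adjusted p 0.401). The one with the largest loss, chr17:6007455-6009279, had 90.9 and 95.4 against 72.8 and 71.6 (limma adjusted p 0.242).

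Where regions that differed by at least 20 points lay within 10 kb of each other, they mostly differed in the same direction. There were 164 such pairs of the same direction and 6 of opposite direction, so most of the 2149 regions had no such neighbour. The share of same-direction pairs among all neighbouring shared regions is not given here. Neighbouring regions may be pieces of one accessible stretch, so such pairs are not independent. With neighbours joined across up to 50 kb, and no region of the opposite direction between them, 6 runs held at least 5 regions. These runs were found after values were seen and carry no test. The regions that define a run are among the shared regions counted in its span, so those counts partly follow from the choice.

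The longest run was on chromosome 11, from 81809568 to 81985890, and held 7 regions lower with Dex before LPS. All 12 shared regions in this span of 176 kb had a negative difference, and 3 further regions there were listed by both LPS libraries and neither library with Dex. Differences of the 7 ran from -42.1 to -26.2 points, with a median of -33.2. The lowest was at chr11:81952853-81953772, where the percentiles were 48.5 and 47.2 with LPS alone and 5.22 and 6.25 with Dex before LPS (limma adjusted p 0.242 on percentiles and 0.0265 on the log2 scale). In contrast, chr11:81818016-81819046 showed a wide spread between the libraries with Dex, at 39.6 and 69.6, below 81.5 and 89.1 with LPS alone. Other runs of lower regions held 5 regions each. At chr13:43860274-43898799 all 9 shared regions of the span had a negative difference, and at chr7:95348436-95427207 9 of 10 did.

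Runs of higher regions lay on chromosomes 3, 9 and X. At chr3:69402009-69504351, 6 regions were higher by 22.0 to 59.3 points, and all 7 shared regions had a positive difference. Its largest difference was at chr3:69410410-69411866, with percentiles of 6.78 and 38.3 with LPS alone and 75.0 and 88.7 with Dex before LPS. At chr9:44892243-44930998, 5 regions were higher by 20.1 to 57.0 points, and the span held no other shared region. The run at chrX:137026307-137078292 had 5 regions higher by 33.8 to 46.1 points. This last span also held 5 regions that both libraries with Dex listed and neither LPS library did, and all 6 of its shared regions had a positive difference.

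Hotspots were narrower in the libraries with Dex before LPS. The median covered width of the shared regions was 917 and 958 bp with LPS alone and 771 and 901 bp with Dex before LPS. The groups did not overlap, and their means differed by -101.5 bp (exact permutation test, two-sided p = 0.333, the smallest that 2 libraries against 2 allow). The narrowest library was also the one with the shortest list and the largest density step. The part of list length and depth in these widths was not tested. Region by region, limma on log2 width called 0 wider (0%) and 0 narrower (0%), with a smallest adjusted p of 0.132 and 3630 regions at an unadjusted p under 0.05. Without overlap, 1480 regions (4.95%) were wider and 12873 (43.1%) narrower, and by at least 2-fold 47 (0.157%) were wider and 570 (1.91%) narrower. Centring each library on its own median changed the picture: limma then called 41 regions wider and 86 narrower. Leaving out replicate 2 with Dex before LPS gave 45 wider and 4206 narrower. That fit has 1 library with Dex, the narrowest, which is assumed to vary like the 2 LPS libraries, so these calls are not a result of the replicated comparison.

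Differences in width and rank tended to go together. Over all shared regions the median log2 width difference was -0.15. In the 1001 regions at least 20 points higher it was 0.21, and 48.8% of them were wider without overlap. In the 1148 at least 20 points lower it was -0.54, and 88.8% were narrower without overlap. Over the 29897 regions, rank and log2 width differences had a Pearson r of 0.557 and a Spearman rho of 0.517. Both measures come from the same tags in the same libraries, so this describes the lists and is not independent support. The region with the largest gain in rank, chr9:48552749-48553897, covered 288 and 559 bp with LPS alone and 926 and 1148 bp with Dex before LPS. A large widening was seen at chr11:51687572-51688951, which covered 471 and 299 bp against 1362 and 1379 bp (limma adjusted p 0.163). The opposite was seen at chr2:122123495-122125264, which covered 1391 and 1660 bp with LPS alone and 251 and 251 bp with Dex before LPS (limma adjusted p 0.132). Its percentiles were low in all libraries, 14.9 and 11.5 against 9.26 and 2.88. Among the regions named for rank or width, 251 bp was the smallest width and recurred, also in LPS libraries. Whether it is a lower limit of the lists was not tested, so equal widths of 251 bp need not show close replicates. At chr2:167206874-167208426 the width went from 1362 and 1552 bp to 251 and 375 bp. These widths were picked as extremes after values were seen.

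**Figure D4:**
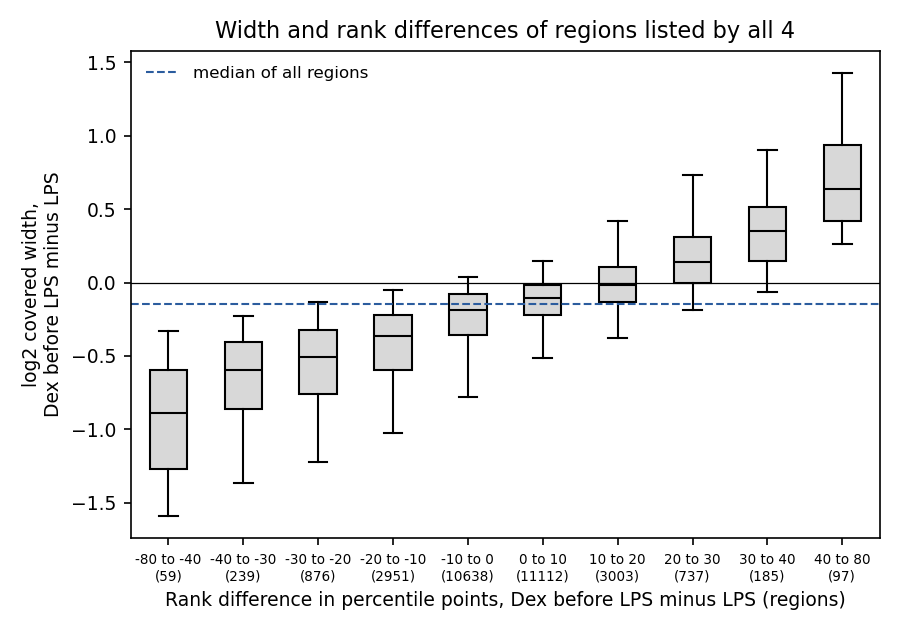
Difference in log2 covered width (y axis, Dex before LPS minus LPS alone) for shared regions grouped by their difference in percentile points (x axis, number of regions in brackets). Boxes show the median and quartiles, whiskers the 5th and 95th percentiles, and the dashed line the median of all regions (-0.15); the median rises from left to right and lies above 0 only in the groups at least 20 points higher.

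A region missing from a list lay below its threshold, which does not mean closed chromatin. Both LPS libraries and neither library with Dex listed 5021 regions, and the reverse held for 572. The imbalance was smaller at equal list length: when each list was reduced to its 34646 strongest hotspots, the numbers were 1818 and 1381. Without the short list of replicate 1 with Dex before LPS, they were 5690 and 2692, and without replicate 2 they were 11777 and 923. Missing regions were mostly weak. Among regions that both LPS libraries listed, the share missing from both libraries with Dex was 40.9% below the 20th percentile (2128 of 5201) and 0.0308% above the 80th (3 of 9741). In the other direction it was 5.56% below the 20th (183 of 3292) and 0.0662% above the 80th (5 of 7558). These shares are from the deposited lists of unequal length. At equal length, the shares below the 20th were 21.9% (1262 of 5763) for regions of LPS alone and 18.2% (981 of 5399) in the other direction.

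**Figure D5:**
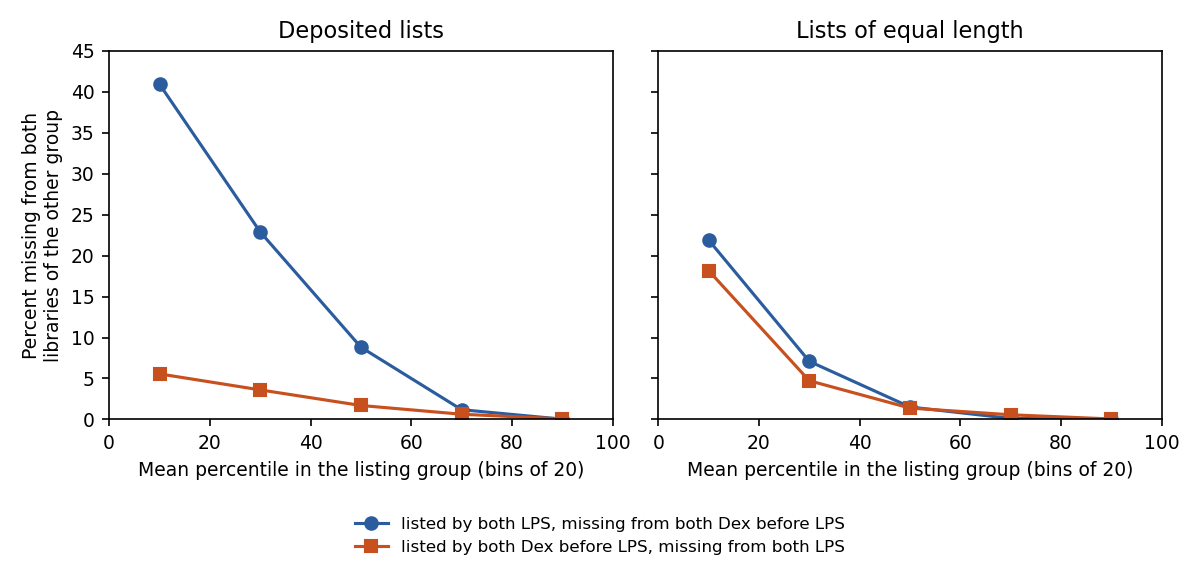
Percent of regions listed by both libraries of one treatment that both libraries of the other treatment lack (y axis), by mean percentile within the whole list in bins of 20 (x axis), for the deposited lists (left) and lists of equal length (right). Blue circles are regions of LPS alone and orange squares regions of Dex before LPS; both lines are highest for weak regions and near 0 for strong ones, and they are closer together at equal length.

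A few strong regions appeared on one side only. Percentiles in this paragraph are within the whole list of a library. The strongest region listed only with Dex before LPS was chr7:117259850-117261152, at 90.1 and 97.1. Next came chr17:28654281-28655848, at 86.0 and 87.4, and its neighbour chr17:28652382-28653776, at 82.4 and 82.0. The pair lies less than 1 kb apart, and neither LPS library listed either. Hotspots of the LPS libraries lay near these regions, 1151 bp from the first and 2994 and 1095 bp from the pair, so a difference in where a hotspot was placed cannot be told apart from its absence. At chr19:23130783-23132737 the percentiles were 84.2 and 85.7, and the nearest hotspot of an LPS library was 66849 bp away. Regions listed only with LPS alone included chr13:5816212-5817009 (84.2 and 76.4) and chr13:5785889-5786864 (72.9 and 87.3), on the same stretch of chromosome 13. The nearest hotspot with Dex before LPS was 10842 bp from the former and 545 bp from the latter. A further one, chr2:24159744-24160874, stood at 76.2 and 83.0, with a hotspot of the other group 1264 bp away. The highest-ranked of this kind, chrY:2860866-2861333, had percentiles of 89.2 and 93.8 but deposited z-scores of only 9.75 and 8.95, against 23.5 and 15.6 at chr13:5816212-5817009.

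Values with Dex given late in the LPS treatment can be set beside these, with ranks taken over the 25097 regions listed by all 6 libraries. The LPS libraries are the same in both comparisons, so these values are not independent. At chr9:48552749-48553897 the late-treated libraries stood at 75.5 and 82.9, beside 83.2 and 74.7 with Dex before LPS and 1.80 and 2.99 with LPS alone. In the 10 regions named as higher, the late-treated libraries ranged from 30.3 to 88.0. The mean with Dex before LPS minus the late-treated mean was 19.5 points at chr15:66573801-66574806, where the values were 56.3 and 63.0 against 30.3 and 50.01, and from -7.93 to 7.15 points in the other 9. In the 9 regions named as lower that all 6 libraries listed, the late-treated libraries ranged from 11.3 to 63.7, and that difference ran from -42.2 to -7.07 points. At chr2:122490910-122492812 the late-treated values were 45.9 and 63.7, between 15.7 and 9.48 with Dex before LPS and 87.6 and 85.1 with LPS alone. At chr3:138183704-138185187 they were 15.7 and 24.9, and the groups given Dex overlapped. Compared directly, Dex before LPS and Dex late differed at 0 of the 25097 regions with limma (smallest adjusted p 1), with 857 (3.41%) at an unadjusted p under 0.05. The regions named here were chosen for extreme values with Dex before LPS, so their differences from the late-treated libraries are a description.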

How the data were processed

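DNase-seq hotspot lists of 4 libraries were compared, and the 2 late-treated libraries were used for side-by-side values. Nuclei were treated with DNase I (80 U/ml, 37 °C, 3 min), DNA of 100 to 500 bp was selected on a gradient, and reads were 51 bp single-end, per the labels' protocols. Build mm9 and CASAVA are named in the submitters' processing notes; the aligner, caller and threshold were not given in the sources used here. The deposited signal values are a maximum and an average tag density per hotspot, per the file headers. A deposited z-score (a score) was printed for 2 regions, and the deposited p-value was not used in a test.

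Hotspots overlapping by 1 bp were merged, and each region took its highest maximum density per library, re-ranked as a percentile over shared regions. Ranks and log2 covered widths were fitted with limma 3.58.1 (R 4.3.3, moderated test with trend, Benjamini-Hochberg over all shared regions, called at an adjusted p of 0.05); library medians were compared with exact permutation tests (scipy 1.17.1). The fit was tested on simulated data, with shifts planted in regions of middle rank and independent noise. The fit returned the size of planted rank shifts but called few of them, and none at the smaller sizes planted first. In that setting it had little power with 2 libraries a group. Alternatives were other scales, signal columns, filters, merging, a replicate block and each library left out. The naming rule took called regions with the largest differences without overlap, 10 per direction for ranks and 5 for widths, and the 5 highest-ranked missing regions. As none was called, the regions named for rank and width follow the rest of that rule and were picked after values were seen. Members and lists were chosen with earlier results of these data known. Gene lists, markers and motifs needed mm9 positions or sequence and were not analysed here.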

Additional observations from a re-analysis of the deposited data

How the results depend on the processing

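The 20 regions named for rank kept their direction in all 257 recomputed values, with adjusted limma p from 0.000443 to 0.941; they were chosen for the largest differences without overlap, so this is no sign of stability. Counts of calls were less stable. Quantile-normalized log2 density gave 98 regions higher and 59 lower where percentiles gave 0 and 0, and all 157 were also called with the replicate block. The replicate block gave 384 higher and 505 lower in ranks and 0 and 0 in widths. Same-numbered libraries deviated together in ranks (correlation 0.332) and less in widths (0.131), but with 2 pairs and no label that ties the numbers to a batch, the pairing is not established. Leaving out each library in turn gave 0 to 0 higher and 0 to 4 lower; the 4 came without replicate 1 of Dex before LPS. The 20-point counts went to 273 higher and 3673 lower with whole-list percentiles. They lay between 1305 and 1703 higher and between 1323 and 1871 lower with a library left out, where fewer libraries must not overlap; only leaving out LPS replicate 2 kept both within 1.5 times. Widths centred on library medians gave 41 wider and 86 narrower. With a library left out they gave 0 to 45 wider and 0 to 4206 narrower, the upper values without replicate 2 of Dex before LPS. Fits without a library have an arm of 1, assumed to vary like the other group. The difference in median width stayed negative, from -166 to -49.5 bp. Lists of equal length gave 1381 regions only with Dex before LPS and 1818 only with LPS alone; leaving out a library gave 923 to 2692 and 5690 to 11777, the highest without replicate 1 and without replicate 2 of Dex before LPS, and the other libraries moved a count by over 1.5 times too. Depth is unknown, and with 2 libraries a group the exact tests could not go below 0.333.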
